A study of Homo sapiens with 4 samples.

Results

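Polyamine metabolism was followed through 10 genes in FaDu cells, an established epithelial line from a squamous carcinoma of the hypopharynx. The genes were ODC1, AMD1, SRM and SMS (synthesis), SAT1, SMOX and PAOX (catabolism), OAZ1 and OAZ2 (antizymes) and AZIN1 (antizyme inhibitor). They were found by symbol among 62077 rows of the expression table, 1 row each on a main chromosome, and all 10 reached a mean of 1 FPKM (fragments per kilobase of exon, scaled to the mapped total of the library). The set was chosen by pathway and because of the measured fall of ODC1 in hypoxia, so the hypoxia values of ODC1 are given as a description. RNA sequencing covered 4 groups of 1 library each. N-scr cells carried a scrambled control and were kept in normoxia, and N-si cells carried a knockdown of TET1, an enzyme that oxidises 5-methylcytosine in DNA. H-scr and H-si were the same kinds of cells after 19 h at 1% oxygen with 5% CO2. All groups were grown in DMEM with serum and carried lentiviral hairpin vectors, although the labels write the knockdown as TET1-si. The methods describe infected cells assayed within days, whereas the text calls the lines clones. No group had a replicate, so every difference stands between single libraries and has no replicate check and no p-value.

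Polyamines (putrescine, spermidine and spermine) are small cationic metabolites that bind nucleic acids and are needed by growing cells. ODC1 decarboxylates ornithine to putrescine, and AMD1 makes the aminopropyl donor that SRM and SMS use to build spermidine and spermine. SAT1 acetylates spermidine and spermine for export or for oxidation by PAOX, while SMOX oxidises spermine directly. Antizymes bind the ODC1 protein and carry it to the proteasome, and AZIN1, a relative of ODC1 without its activity, captures antizyme.

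The libraries held approximately 22440000 to 24520000 reads, as recovered from the FPKM steps of single-exon genes. The labels and the methods differ on single or paired ends, so these and all read numbers given here may be fragments. TET1 was lower in both knockdown libraries (0.0493 against 0.129 FPKM under normoxia, 0.122 against 0.331 under hypoxia), on approximately 11 to 76 reads. All 6 epithelial markers were present in every library, among them EPCAM (102 to 206 FPKM) and TP63 (42.1 to 54.8 FPKM). After TET1-si, KRT5, KRT8 and KRT18 were at least 2-fold lower in both oxygen states (log2 changes from -2.35 to -1.48), EPCAM and CDH1 were higher by 0.41 to 0.68, and TP63 had -0.27 in normoxia and -0.04 under hypoxia. The part of these changes in the results was not tested. Of the markers of other cells, PTPRC and DCN stood at no more than 0.0101 and 0.0809 FPKM and at 0 in 3 libraries each, whereas COL1A1, a collagen gene, had 5.29 FPKM in normoxic and 28.6 in hypoxic scrambled cells, and 14.0 and 37.0 with TET1-si; its part in the results was likewise not tested.

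The levels of the 10 genes spanned a wide range. OAZ1 had the highest FPKM of the 10 genes in 3 libraries, from 290 in H-si to 433 in N-scr, and SAT1 stood above it in H-si with 300 FPKM. SMS and AZIN1 followed in normoxia, with 210 and 188 FPKM (scrambled) and 282 and 195 FPKM (TET1-si). ODC1, AMD1 and SRM lay lower, between 32.3 and 89.4 FPKM in normoxia, and OAZ2 between 47.9 and 73.3 in all 4 libraries. The oxidases were the least expressed, with 3.65 to 4.68 FPKM for SMOX and 1.27 to 3.87 for PAOX. FPKM is scaled by exon length, so these levels can be set side by side, but bulk RNA cannot tell fewer expressing cells from less RNA per cell.

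**Figure D1:**
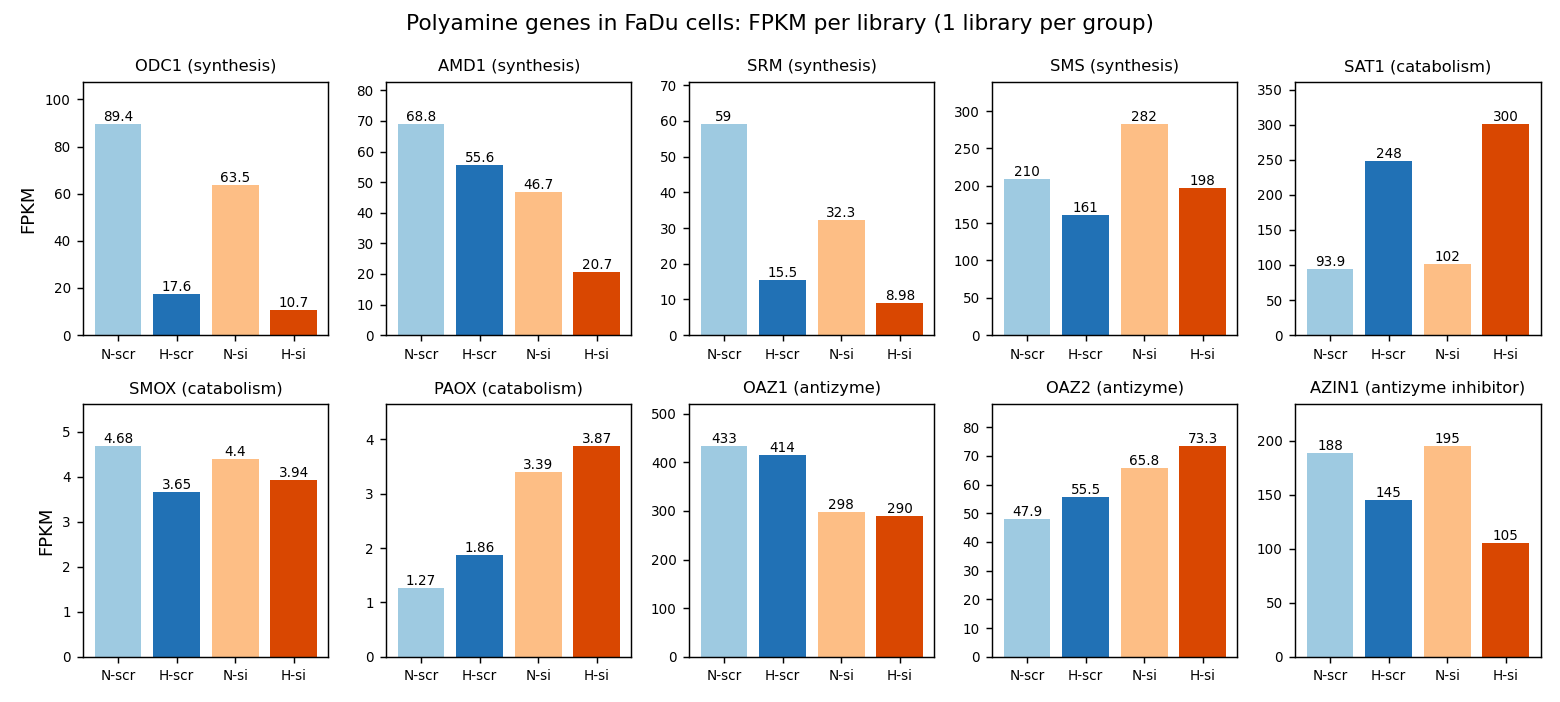
Bars give the FPKM (linear axis from 0, its own range in each panel) of the 10 polyamine genes in the 4 libraries, 1 library per group and therefore without error bars. ODC1 and SRM were lower in both hypoxia libraries than in both normoxia libraries, and SAT1 was higher.

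Promoter windows of 300 bases were available from RefSeq (GRCh38.p14) for 7 of the 10 genes, and each matched hg19 at 1 place. They hold 250 bases before and 50 after a start site. SMOX, PAOX and AZIN1 had no window. Shown here are the genes that moved beyond 2-fold under hypoxia in both knockdown states, by the bases that lie before the start site and outside the gene's annotated exons and locus. ODC1 has a second window downstream of its canonical start site, of which 30 bases around each E-box are shown. The site nearer to the canonical start lies in no annotated exon of ODC1, and the other overlaps an exon of a different protein-coding transcript. Capitals mark the E-box CACGTG, the motif bound by MYC and its partner MAX, and the HIF core (ACGTG or GCGTG), the motif bound by hypoxia-inducible factors, both searched on both strands. CACGTG contains ACGTG on each strand, so an E-box is also counted as a pair of cores.
ODC1 upstream, chr2:10588631-10588703, minus strand, hg19: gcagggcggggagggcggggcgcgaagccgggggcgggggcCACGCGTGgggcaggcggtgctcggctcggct
ODC1 second window, 30-base site, chr2:10588150-10588179, minus strand, hg19: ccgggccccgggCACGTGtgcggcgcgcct
ODC1 second window, 30-base site, chr2:10588116-10588145, minus strand, hg19: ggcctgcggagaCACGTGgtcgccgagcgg
SRM upstream, chr1:11120082-11120325, minus strand, hg19: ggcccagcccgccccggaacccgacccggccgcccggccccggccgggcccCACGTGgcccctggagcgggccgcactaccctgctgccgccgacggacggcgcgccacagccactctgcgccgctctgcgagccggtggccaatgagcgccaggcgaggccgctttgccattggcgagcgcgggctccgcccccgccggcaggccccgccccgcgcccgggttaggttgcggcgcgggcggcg
SAT1 upstream, chrX:23801040-23801289, plus strand, hg19: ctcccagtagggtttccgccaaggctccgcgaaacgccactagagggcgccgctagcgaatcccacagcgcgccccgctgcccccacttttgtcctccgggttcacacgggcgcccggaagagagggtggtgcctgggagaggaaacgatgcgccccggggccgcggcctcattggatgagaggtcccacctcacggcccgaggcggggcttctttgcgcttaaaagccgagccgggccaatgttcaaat

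In the second window of ODC1 the E-box stands at 2 places and in the window of SRM at 1, and none of the other 5 genes with a window holds it. CACGTG was found in 7.23% of 34943 promoter windows of the same length, and a HIF core in 48.4%. The upstream window of ODC1 holds 3 HIF cores, 2 of them overlapping in the stretch shown, and that of SAT1 holds neither motif. A HIF core stands in at least 1 window of 5 of the 7 genes (ODC1, SRM, SMS, OAZ1 and AMD1), and AMD1 also has a window without one. The 48.4% is a share of windows, and a gene with several windows has more chances to hold a core. The cores were not tested against the hypoxia changes. The ODC1 and SRM windows were also rich in G and C, at 79.0% and 80.7% for ODC1 and 82.0% for SRM, against 66.0% for SAT1. A match of letters describes the sequence and does not show that a factor binds. MYC itself had 52.8 FPKM under normoxia and 54.8 under hypoxia with the scrambled control, and 40.6 and 28.5 with the knockdown. Its hypoxia change in scrambled cells was not detectable at this depth (0.05, interval -0.01 to 0.11). With TET1-si the hypoxia change of MYC was -0.51 (-0.59 to -0.44). After TET1-si MYC changed by -0.38 in normoxia (-0.44 to -0.31) and by -0.94 under hypoxia (-1.02 to -0.87). MAX stayed between 65.9 and 73.0 FPKM.

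Of the synthesis genes, ODC1 and SRM fell in hypoxia in both knockdown states. ODC1 (ENSG00000115758, chr2:10580094-10588630, minus strand, hg19) had 89.4 FPKM under normoxia and 17.6 under hypoxia with the scrambled control, and 63.5 and 10.7 with the knockdown. Its level under hypoxia was thus 5.08-fold lower with the scrambled control and 5.92-fold lower with TET1-si. On the log2(FPKM + 0.1) scale, used for all changes here, these were -2.34 and -2.55, with 95% counting intervals -2.45 to -2.25 and -2.70 to -2.43. The intervals rest on approximately 4631, 976, 3515 and 545 reads in the order of the levels above. They were computed without the added 0.1 and cover counting error only. ODC1 ranked 111 from the lowest of 15057 genes in scrambled cells and 132 with TET1-si, which is how it came to be chosen.

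SRM, the spermidine synthase (ENSG00000116649, chr1:11114641-11120081, minus strand), had 59.0 and 15.5 FPKM in the scrambled libraries (normoxia, then hypoxia) and 32.3 and 8.98 in the TET1-si libraries. Both hypoxia libraries lay below both normoxia libraries. Like the second window of ODC1, its upstream stretch printed above holds the E-box letters. Whether these letters play a part in the fall of either gene was not tested. SRM changed by -1.92 in scrambled cells (interval -2.09 to -1.77) and by -1.83 with TET1-si (-2.07 to -1.62). These values rest on approximately 211 to 1415 reads per library. The ODC1 and SRM transcripts kept a ratio of 1.51 under normoxia and 1.13 under hypoxia with the scrambled control, and 1.97 and 1.19 with TET1-si, so the fall of ODC1 was somewhat steeper.

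The other synthesis genes moved less. AMD1, which encodes S-adenosylmethionine decarboxylase (ENSG00000123505, chr6:111195973-111216916), had 68.8 FPKM in normoxic and 55.6 in hypoxic scrambled cells, and 46.7 and 20.7 with TET1-si. Its hypoxia change was -0.31 in scrambled cells (-0.37 to -0.25) and -1.17 with TET1-si (-1.26 to -1.09). Only the second passed 2-fold, and the difference of the 2 responses, -0.86, was the lowest among the 10 genes but stayed under 2-fold and was not tested. SMS, the spermine synthase (ENSG00000102172, chrX:21958691-22025798), had 210 FPKM under normoxia and 161 under hypoxia with the scrambled control, and 282 and 198 with the knockdown, with changes of -0.38 and -0.51. The level of SMS relative to SRM therefore was 3.55 under normoxia and 10.4 under hypoxia with the scrambled control, and 8.75 and 22.0 with TET1-si.

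Among the catabolic genes, SAT1 rose in hypoxia. SAT1, the spermidine/spermine acetyltransferase (ENSG00000130066, chrX:23801290-23804343), had 93.9 and 248 FPKM in the scrambled libraries (normoxia, then hypoxia) and 102 and 300 in the TET1-si libraries. Both hypoxia libraries lay above both normoxia libraries, by 2.64-fold in scrambled cells and 2.95-fold with TET1-si. The log2 changes were 1.40 (interval 1.32 to 1.48) and 1.56 (1.49 to 1.63). SAT1 transcripts are known to be spliced in forms with and without a coding product, and gene-level FPKM do not separate them. Of the canonical exons of SAT1, 8.58% also belong to a same-strand protein-coding gene (ENSG00000288706), for which no level was available.

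The oxidases gave smaller and less certain values. SMOX (ENSG00000088826, chr20:4101627-4168394) had 4.68 FPKM in normoxic and 3.65 in hypoxic scrambled cells, and 4.40 and 3.94 with TET1-si. Its hypoxia change was -0.35 in scrambled cells (-0.65 to -0.06), and in TET1-si cells no change was detectable at this depth (-0.16, interval -0.46 to 0.13). PAOX (ENSG00000148832, chr10:135192695-135205198) had 1.27 FPKM under normoxia and 1.86 under hypoxia with the scrambled control, and 3.39 and 3.87 with the knockdown, on approximately 47 to 140 reads. The hypoxia change of PAOX was 0.52 (0.01 to 1.12) and 0.18 (-0.16 to 0.54). Of its canonical exons, 75.0% also belong to a protein-coding gene on the same strand (ENSG00000254536, 0.145 to 1.31 FPKM), so the level of PAOX is uncertain.

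The antizymes stayed close to their normoxia levels. OAZ1 (ENSG00000104904, chr19:2269519-2273487) had 433 and 414 FPKM in the scrambled libraries (normoxia, then hypoxia) and 298 and 290 in the TET1-si libraries. Its hypoxia change was -0.06 (-0.11 to -0.02) in scrambled cells and -0.04 (-0.09 to 0.01) with TET1-si, and rescaling to TPM, in which every library has the same total, turned them to 0.05 and 0.10. The exons of OAZ1 share 19.6% of their length with JSRP1 on the other strand, which had at most 0.353 FPKM. They share 19.2% with a protein-coding gene on the same strand (ENSG00000273734), for which no level was available. OAZ2 (ENSG00000180304, chr15:64979772-64995480) had 47.9 FPKM in normoxic and 55.5 in hypoxic scrambled cells, and 65.8 and 73.3 with TET1-si, with changes of 0.21 and 0.16. AZIN1 (ENSG00000155096, chr8:103838585-103906092) had 188 FPKM under normoxia and 145 under hypoxia with the scrambled control, and 195 and 105 with the knockdown. Its hypoxia change was -0.37 (-0.41 to -0.34) in scrambled cells and -0.89 (-0.93 to -0.86) with TET1-si, the latter just short of 2-fold. The exons of AZIN1 share 3.79% with a same-strand protein-coding gene (ENSG00000289653), also without an available level.

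Across the 10 genes, ODC1 and SRM fell at least 2-fold under hypoxia with the scrambled control (2 genes), beside 4.53% of 15057 genes, and SAT1 alone was at least 2-fold higher, beside 12.9% of genes. In TET1-si cells 3 were at least 2-fold lower (ODC1, SRM and AMD1), beside 8.66% of genes, and SAT1 was again the only one higher, beside 12.5%. ODC1 and SRM were lower in both knockdown states, as were 2.34% of all genes, and SAT1 was higher in both, as were 6.73%. Since ODC1 was chosen on these contrasts, the counts describe the set. The median change of the 10 genes was -0.33 in both knockdown states, against 0.05 and 0.03 for all genes, with 7 of 10 members lower by any amount in each, beside 46.4% and 47.8% of all genes.

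**Figure D2:**
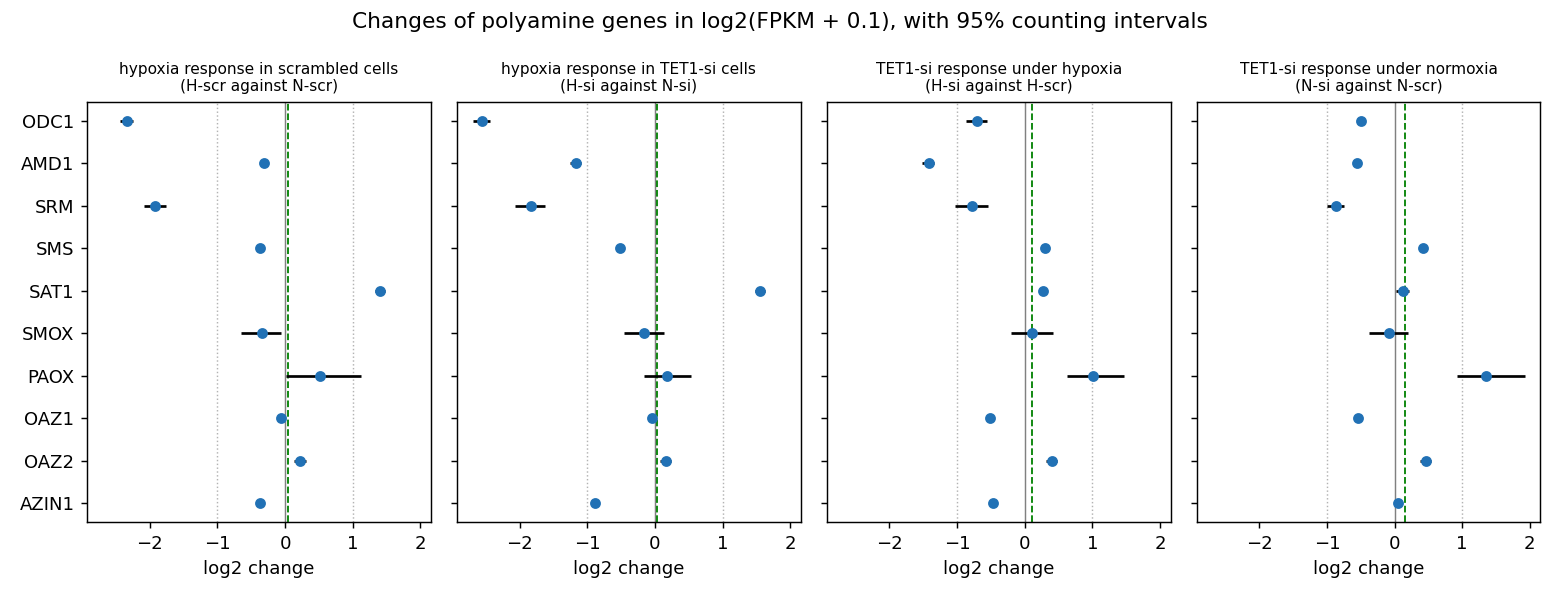
Points give the change in log2(FPKM + 0.1) of each gene in the 4 comparisons. Black lines give its 95% counting interval, computed without the added 0.1. Dotted lines mark 2-fold and the green dashed line the median of all 15057 genes. ODC1 and SRM lie beyond 2-fold on the left in both hypoxia panels and SAT1 on the right, while OAZ1 lies near 0 in hypoxia and near -0.5 after TET1-si.

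Ratios between genes within a library do not depend on how libraries are scaled against each other. ODC1 was chosen for its fall in hypoxia, so the rise of a ratio to ODC1 in part restates that fall. OAZ1 exceeded ODC1 by 4.84-fold (scrambled) and 4.70-fold (TET1-si) under normoxia, and by 23.5-fold and 27.0-fold under hypoxia. The ratio of AZIN1 to ODC1 was 2.11 and 8.27 with the scrambled control (normoxia, then hypoxia) and 3.07 and 9.79 with TET1-si. SAT1 and ODC1 were nearly level in N-scr, at a ratio of 1.05, and stood at 14.1 under hypoxia; with TET1-si the ratios were 1.61 and 28.0. SAT1 relative to SMS, which avoids ODC1, was 0.448 and 0.361 in the normoxia libraries, against 1.54 and 1.52 under hypoxia. The ratio of OAZ1 to its inhibitor AZIN1 stayed within a narrower range, at 2.30 under normoxia and 2.85 under hypoxia with the scrambled control, and 1.53 and 2.76 with TET1-si. These are ratios of RNA, and they say nothing of the proteins, which are regulated at translation and by degradation in this pathway.

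**Figure D3:**
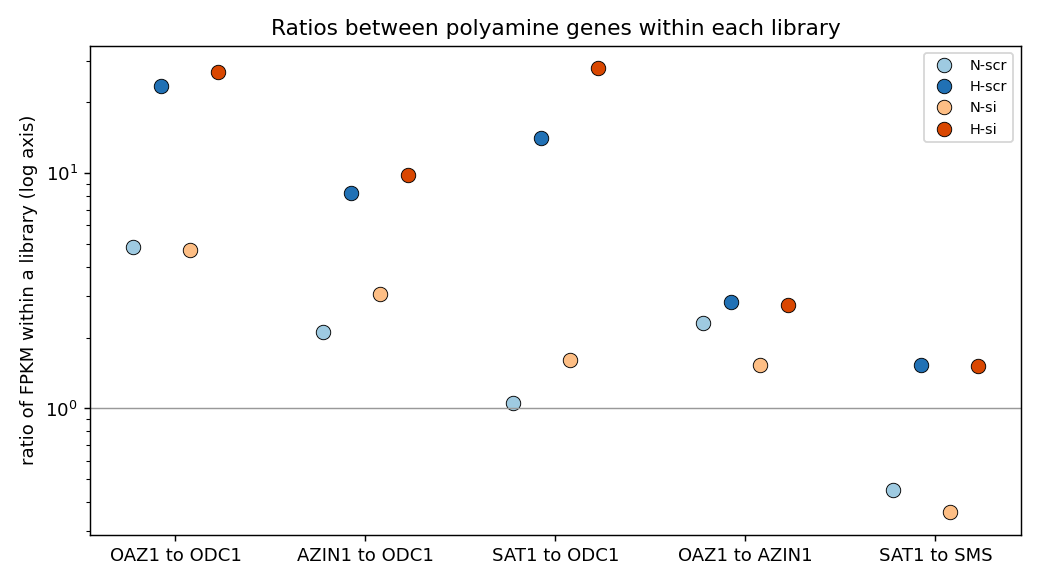
Each point is the ratio of the FPKM of 2 genes in 1 library (log axis). The 3 ratios to ODC1 are higher in both hypoxia libraries than in both normoxia libraries. ODC1 was chosen for its fall in hypoxia, so this rise in part restates that fall. The ratio of OAZ1 to AZIN1 lies between 1.53 and 2.85.

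After TET1-si the 10 genes were split, with 5 lower and 5 higher by any amount in each oxygen state. Of all genes, 39.0% were lower in normoxia and 42.9% under hypoxia. The synthesis genes ODC1, SRM and AMD1 were lower in both oxygen states. In normoxia the TET1-si change was -0.49 for ODC1 (-0.56 to -0.43), -0.87 for SRM (-0.998 to -0.747) and -0.56 for AMD1 (-0.62 to -0.50). Under hypoxia it was -0.71 for ODC1 (-0.87 to -0.56), -0.78 for SRM (-1.04 to -0.54) and -1.42 for AMD1 (-1.51 to -1.34). SMS went the other way, with 0.43 in normoxia and 0.29 under hypoxia. For SMOX no change was detectable at this depth, with -0.09 (-0.37 to 0.19) and 0.10 (-0.21 to 0.41). AMD1 under hypoxia was the sole member at least 2-fold lower, beside 8.35% of genes. In normoxia no member was, beside 5.56% of genes, and with median-of-ratios scaling SRM was, at -1.04.

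The antizymes differed in direction after TET1-si. OAZ1 changed by -0.54 in normoxia (-0.58 to -0.49) and by -0.51 under hypoxia (-0.56 to -0.47), whereas OAZ2 changed by 0.46 and 0.40. The ratio of OAZ1 to OAZ2 was 9.05 and 7.46 with the scrambled control (normoxia, then hypoxia) and 4.54 and 3.96 with TET1-si, lower in both knockdown libraries. PAOX was 2.68-fold higher in normoxia and 2.08-fold higher under hypoxia. It was the only member past 2-fold in that direction, beside 12.1% and 12% of genes. Its log2 changes were 1.35 (0.93 to 1.93) and 1.02 (0.63 to 1.47), and both intervals reach below 2-fold. A pseudocount of 1 brought PAOX below 2-fold in both, at 0.95 and 0.77. Under hypoxia, median-of-ratios scaling (0.87) and upper-quartile scaling (0.96) did so too. AZIN1 had 0.05 in normoxia and -0.47 under hypoxia, and SAT1 0.12 and 0.28, and both normoxia values turned below 0 with median-of-ratios scaling (-0.12 and -0.05). The median of the 10 genes was -0.02 in normoxia and -0.18 under hypoxia, against 0.15 and 0.10 for all genes. Relative to those medians, ODC1 changed by -0.64 and -0.81 and OAZ1 by -0.69 and -0.61. The 50 expressed protein-coding genes around each member (28 for PAOX) had median TET1-si changes from 0.02 to 0.25 in normoxia and from -0.04 to 0.17 under hypoxia, a comparison chosen after values were seen.

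Genes that feed or use polyamines were read from 6 further lists of 35 genes, of which 27 reached a mean of 1 FPKM. In scrambled cells AGMAT was at least 2-fold lower in hypoxia and AZIN2 at least 2-fold higher, and 17 of 27 were lower by any amount, with a median of -0.37. In TET1-si cells 5 were at least 2-fold lower (AGMAT, ENOPH1, DOHH, EIF5A and SLC7A1), AZIN2 was again higher, and 19 were lower by any amount, with a median of -0.51. After TET1-si, SAT2 and ADI1 were at least 2-fold higher and SLC7A1 lower under hypoxia, with a median of 0.05. In normoxia ARG2, AGMAT, ADI1 and EIF5A2 were at least 2-fold higher and SLC12A8 lower, with a median of 0.22. The shares of all genes given above, at least 2-fold and by any amount, apply to these counts too.

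The hypusine genes were the list with the lowest median, -0.67 in scrambled cells and -0.91 with TET1-si. Hypusine is made from spermidine on the translation factor encoded by EIF5A, by the enzymes DHPS and DOHH. EIF5A had 708 and 370 FPKM in the scrambled libraries (normoxia, then hypoxia) and 862 and 306 in the TET1-si libraries, a change of -0.94 (-0.97 to -0.90) in scrambled cells and of -1.49 (-1.53 to -1.45) with TET1-si. DOHH, the hydroxylase of the second step, had 9.70, 5.46, 12.9 and 6.16 FPKM in the same order. Its hypoxia change with TET1-si was -1.05, with an interval (-1.30 to -0.83) that reaches above -1. DHPS, the enzyme of the first step, stayed between 41.7 and 47.9 FPKM in all 4 libraries.

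Ornithine and arginine supply was mixed. AGMAT, annotated as agmatinase, had 3.94 FPKM in normoxic and 1.16 in hypoxic scrambled cells, and 8.20 and 1.88 with TET1-si. ARG2, the mitochondrial arginase, had 2.93, 5.67, 10.8 and 9.49 FPKM in the same order, and OAT, the ornithine aminotransferase, 258, 462, 486 and 504. For both genes N-scr was the lowest library. ALDH18A1, an enzyme of proline and ornithine synthesis, changed by -0.51 and -0.50 in hypoxia.

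In methionine salvage, which recycles the methylthioadenosine left by SRM and SMS, MTAP had 43.1 FPKM under normoxia and 24.1 under hypoxia with the scrambled control, and 50.4 and 27.7 with the knockdown. ENOPH1 changed by -0.80 and -1.33 in hypoxia. Of the 8 measured genes listed for the methionine cycle and salvage together, 6 were lower by any amount in each knockdown state. The same 46.4% and 47.8% of all genes were lower. MAT2A, which makes S-adenosylmethionine, had 292, 183, 228 and 154 FPKM in N-scr, H-scr, N-si and H-si. ADI1 was at least 2-fold higher after TET1-si in both oxygen states, by 1.40 and 1.12.

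Among transporters, SLC7A1, which imports arginine and ornithine, had 38.5 and 28.5 FPKM in the scrambled libraries (normoxia, then hypoxia) and 26.8 and 11.9 in the TET1-si libraries. From the highest to the lowest library this is the order that AMD1 had. The lysosomal exporter ATP13A2 had 10.3, 13.1, 10.2 and 13.6 FPKM, and its relative ATP13A3 129, 89.3, 153 and 100. AZIN2, a second antizyme inhibitor listed under its older name ADC, was low, with 0.69 FPKM in normoxic and 2.20 in hypoxic scrambled cells, and 0.66 and 4.23 with TET1-si, on approximately 80 to 477 reads. SAT2, a paralog of SAT1 by name, had 42.3, 52.5, 62.5 and 113 FPKM in N-scr, H-scr, N-si and H-si.

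**Figure D4:**
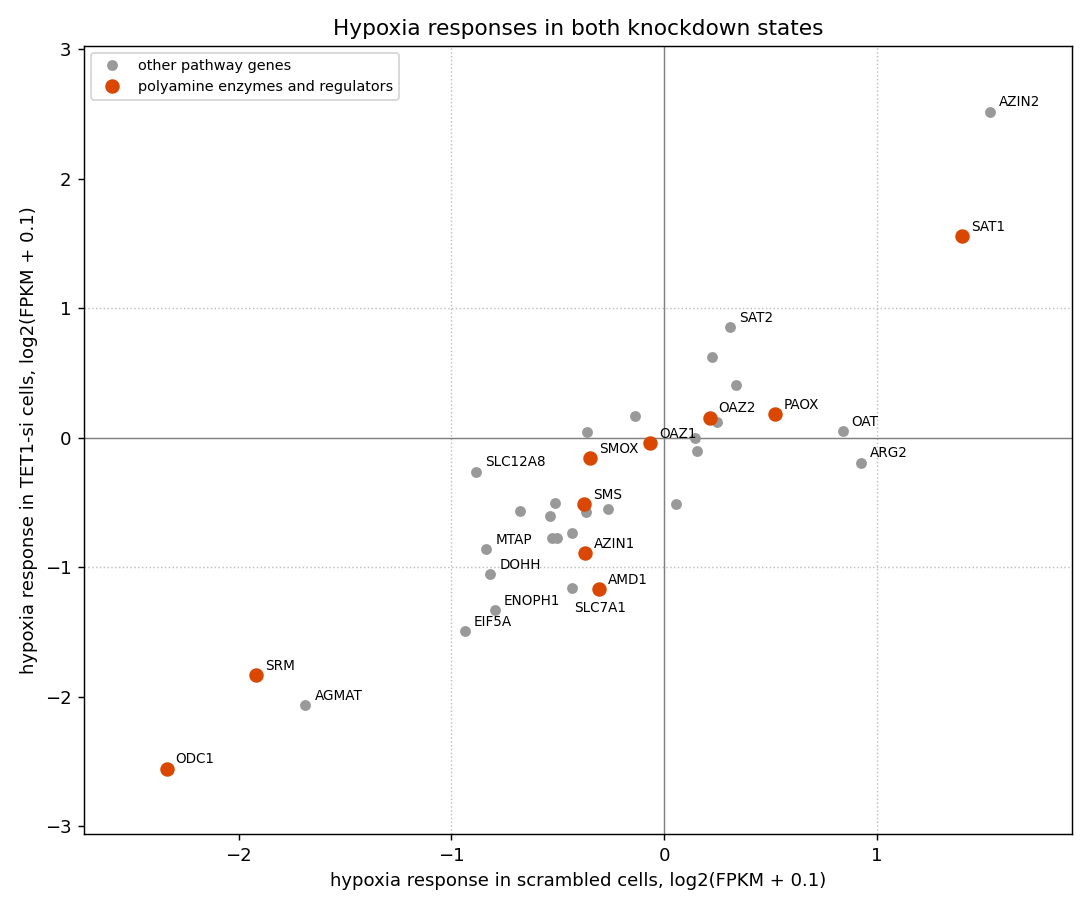
Each point is a gene, placed by its hypoxia response in log2(FPKM + 0.1) in scrambled cells (horizontal axis) and in TET1-si cells (vertical axis), with dotted lines at 2-fold. ODC1, SRM and AGMAT lie beyond 2-fold at the lower left, SAT1 and AZIN2 at the upper right, and AMD1, EIF5A, ENOPH1, DOHH and SLC7A1 pass it in TET1-si cells alone.

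The pattern of ODC1 over the 4 libraries was compared among 9465 protein-coding genes with a mean of at least 5 FPKM, by the distance between log2 values centred on each gene. The nearest were RRS1 (distance 0.49), LYAR (0.58), FAM72B (0.58), SRM (0.63) and METTL1 (0.66). RRS1 had 51.6 and 13.9 FPKM in the scrambled libraries (normoxia, then hypoxia) and 37.2 and 9.05 in the TET1-si libraries. LYAR had 52.3, 14.0, 39.3 and 10.3 FPKM in the same order, and METTL1 60.8, 18.3, 36.5 and 9.58. FAM72B has near-identical paralogs that can share reads, so its level is uncertain. With 4 libraries many genes lie near any pattern. By Pearson correlation instead of distance, among the genes that varied at least 2-fold over the libraries, 0 of the 5 genes were the same. The 5 nearest genes still correlated closely with ODC1, with 1 less the correlation from 0.00047 (RRS1) to 0.0172 (METTL1).

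**Figure D5:**
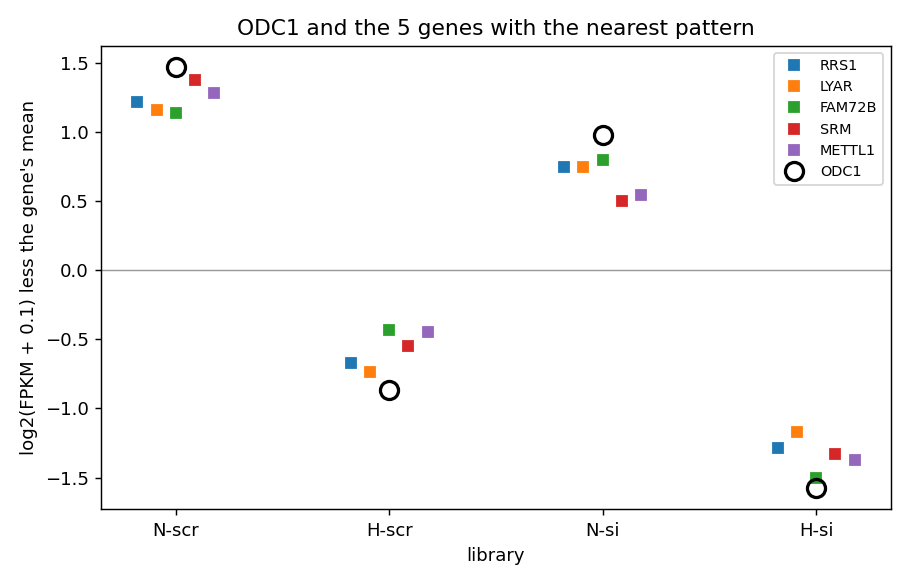
Each symbol is the log2(FPKM + 0.1) of a gene in 1 library less that gene's mean over the 4 libraries, for ODC1 (open circles) and the 5 nearest genes (squares, set side by side for legibility). All 6 genes are above their mean in both normoxia libraries and below it in both hypoxia libraries. The 5 genes were chosen for nearness to ODC1, so this shared direction follows from the choice.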

How the data were processed

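The authors prepared TruSeq mRNA libraries, sequenced 100 bp reads on a HiSeq 2000 (single end per the labels, paired end per the methods) and ran TopHat and Cufflinks with Ensembl annotation on hg19, deposited as gene-level FPKM. Versions and filters are not given in the sources used here. The 4 columns were matched to samples by title. Changes were differences of log2(FPKM + 0.1). Shares of all genes took the 15057 genes averaging 1 FPKM or more, without the 111 IDs that stand on several rows.

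Depth was recovered from 4390 single-exon genes, where 95.4% to 96.5% of low values were whole reads within 0.05. The procedure was tested on simulated data. Approximate reads used the canonical length in GENCODE v44lift37 less 213 bp. Intervals are exact (Clopper-Pearson) at 95% and cover counting error only. They were computed from approximate reads without a pseudocount, so for genes at low FPKM they are not centred on the change given. Loci in the table count from 0, so 1 was added. Reads were not stated to keep strand.

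The members and lists were chosen with earlier results of these data known. Named genes were the members, the listed pathway genes, TET1 and the 5 genes nearest to ODC1. PECAM1, on a patch sequence, was not used. Alternatives were other pseudocounts, minimum levels and scalings. Python 3.11.15, pandas 2.3.3 and scipy 1.17.1 were used.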

Additional observations from a re-analysis of the deposited data

Results flagged for a closer look

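The 10 members and the 27 listed pathway genes that reached 1 FPKM were searched for opposite signs in 2 responses that share no library. For 5 of these genes both counting intervals also excluded 0, which was not tested further. The share of all genes that meets this rule was not computed, and counting intervals are narrow at high read numbers. After TET1-si, AZIN1 changed by 0.049 in normoxia and -0.47 under hypoxia, EIF5A by 0.28 and -0.27, and ENOPH1 by 0.27 and -0.26. In hypoxia, SLC3A2 changed by -0.36 in scrambled and 0.043 in TET1-si cells, and SLC18B1 by -0.14 and 0.17. The differences between the 2 responses have no replicate check. The opposite signs were lost for AZIN1, whose normoxia value turned to -0.12 with median-of-ratios and -0.07 with upper-quartile scaling, and for SLC3A2, whose value with TET1-si turned to -0.05 with median-of-ratios scaling. SLC18B1 in scrambled cells came to -0.02 with TPM. No group had enough libraries to search for one that stood apart.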

How the results depend on the processing

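The hypoxia counts of 3 members in scrambled and 4 in TET1-si cells past 2-fold were the same under the 5 alternatives that can move a value (pseudocounts and scalings). Of 250 member values recomputed under them, 245 kept their side of 2-fold, and 9 changed sign, none of them past 2-fold. The 250 include the differences of the 2 hypoxia responses, which all lay under 2-fold. A shift larger than the distance from the centre of the counting interval to its end was seen for 68 values. For a difference, the interval widths of both responses were combined. After TET1-si under hypoxia, 2 members passed 2-fold, and 1 did with a pseudocount of 1, median-of-ratios scaling, upper-quartile scaling or a minimum of 5 FPKM. In normoxia 1 passed, against 0 with a pseudocount of 1 or a minimum of 5, which leaves out SMOX and PAOX, and 2 with median-of-ratios scaling. The median of the members in scrambled cells in hypoxia moved to -0.21 with TPM and -0.44 with median-of-ratios scaling. In TET1-si cells it moved to -0.20, -0.43, -0.23 (upper-quartile) and -0.70 (minimum of 5). After TET1-si under hypoxia it moved to -0.32 with median-of-ratios scaling and -0.49 with a minimum of 5, and in normoxia to -0.18, -0.14 (upper-quartile) and -0.22 (minimum of 5). With TPM the all-gene median of the hypoxia response went from 0.05 to 0.18 (scrambled) and from 0.03 to 0.18 (TET1-si), and median-of-ratios scaling moved that after TET1-si from 0.15 to -0.01 in normoxia and from 0.10 to -0.03 under hypoxia. The shares of all genes at least 2-fold higher and lower in hypoxia with TET1-si became 16.5% and 6.94% with TPM. With median-of-ratios scaling the higher and lower shares were 10.96% and 6.19% (hypoxia, scrambled), 9.27% and 10.6% (TET1-si under hypoxia) and 9.32% and 7.44% (TET1-si in normoxia). A pseudocount of 1 lowered the share at least 2-fold higher to 8.22% (hypoxia, scrambled) and 7.73% (TET1-si in normoxia). Over the 4 comparisons, a minimum of 5 gave 7.63% to 8.39% higher and 4.03% to 9.39% lower, and no minimum 5.98% to 7.77% and 2.67% to 4.99%.

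Of the other pathway genes, 2 passed 2-fold in hypoxia in scrambled cells, against 1 with a pseudocount of 1, 4 with TPM, 4 with no minimum and 0 with a minimum of 5. In TET1-si cells 6 passed in hypoxia, against 5 with a pseudocount of 1, TPM or upper-quartile scaling and 4 with a minimum of 5. After TET1-si, 3 passed under hypoxia and 6 with no minimum. In normoxia 5 passed, against 3 with median-of-ratios scaling, upper-quartile scaling or a minimum of 5, and 8 with no minimum. Apart from the scaling shifts above, the cause was not tested. No paired analysis was possible because the labels number no replicates and each group has 1 library. An additive fit of oxygen and knockdown over the 4 libraries, which would leave 1 residual degree of freedom, was not run. Depth limits SMOX, PAOX and AZIN2, which rest on few reads.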
